A study of Mus musculus with 2 samples.

Results

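Immune checkpoint genes were described across the cells of RM-1 prostate tumors from a control mouse and an enzalutamide (ENZ)-treated mouse. The set held 10 of the 32285 genes in the deposited tables. They were picked by name as the T cell receptors Pdcd1, Ctla4, Lag3, Havcr2 and Tigit, the ligands Cd274, Pdcd1lg2, Cd80 and Cd86, and the transcription factor Tox. RM-1 is a mouse prostate cancer cell line, and the tumors were grown in the prostate of C57BL/6 mice. The label of each sample gives the genotype as WT. The control tumor came from 1 mouse given vehicle and the ENZ tumor from 1 mouse given enzalutamide, an androgen receptor inhibitor. The dose given to the sequenced mouse and the ages of the mice are not given in the sources used here. Single-cell RNA sequencing (scRNA-seq) was performed on 1 library per mouse, and immune cells were enriched with a kit and a CD45 stain during sorting, so the share of a class reflects the sort as well as the tumor. With 1 library per condition there is no replicate check, and no p-value is given for any comparison.

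Checkpoint receptors are inhibitory proteins on activated lymphocytes that restrain the T cell response when they meet their ligands. PD-1, the product of Pdcd1, is engaged by PD-L1 (Cd274) and PD-L2 (Pdcd1lg2). CTLA-4 competes with the costimulatory receptor CD28 for CD80 and CD86 on antigen-presenting cells and is carried at high levels by regulatory T cells. LAG-3, TIM-3 (Havcr2) and TIGIT are further receptors found together with PD-1 on T cells that have met antigen for a long time, a state known as exhaustion, and Tox is a nuclear factor needed for that state. Interferon gamma from T and NK cells is a known inducer of Cd274. Prostate cancer is regarded as a tumor with few T cells.

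The 10 genes lie on 6 mouse chromosomes of GRCm38, by the GENCODE annotation. Cd274 (chromosome 19, 29367455 to 29388095, plus strand) ends 22824 bases before Pdcd1lg2 starts (29410919 to 29471161, plus strand), so that the PD-1 ligand genes are neighbors. Ctla4 (chromosome 1, 60887000 to 60915832, plus strand) sits between the costimulatory receptor genes Cd28 and Icos, and Pdcd1 (94038305 to 94052553, minus strand) is on the same chromosome. Cd86 (36603869 to 36666081, minus strand), Cd80 (38455561 to 38496335, plus strand) and Tigit (43648867 to 43664146, minus strand) are on chromosome 16. Tox (6686353 to 6991557, minus strand) is on chromosome 4, Lag3 (124904361 to 124911705, minus strand) on chromosome 6 and Havcr2 (46454935 to 46481255, plus strand) on chromosome 11. The promoters of the PD-1 ligand genes are shown because Cd274 differed between the libraries in macrophages and monocytes while Pdcd1lg2 beside it followed a different pattern over the cells. Each is the 250 bases before the start of the gene in RefSeq (GRCm38.p6, plus strand), at chr19:29367188-29367437 for Cd274 and chr19:29410669-29410918 for Pdcd1lg2, and capitals mark GAAA or its reverse complement TTTC, the core of sites for interferon regulatory factors.
Cd274: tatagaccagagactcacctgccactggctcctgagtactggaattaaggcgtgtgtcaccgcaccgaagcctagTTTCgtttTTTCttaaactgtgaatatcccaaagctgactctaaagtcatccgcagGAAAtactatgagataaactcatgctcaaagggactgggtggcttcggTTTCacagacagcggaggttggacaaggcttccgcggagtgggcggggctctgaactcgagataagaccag
Pdcd1lg2: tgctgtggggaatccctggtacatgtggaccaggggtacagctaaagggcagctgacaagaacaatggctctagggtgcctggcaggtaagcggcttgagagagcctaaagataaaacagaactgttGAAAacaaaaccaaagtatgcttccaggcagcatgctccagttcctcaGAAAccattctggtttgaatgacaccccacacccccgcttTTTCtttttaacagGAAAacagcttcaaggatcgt
Each of the pair held 4 such cores, a number reached by 28.9% of the 32851 promoters in the RefSeq table. The longer interferon-stimulated response element, searched as a pair of GAAA cores in 1 direction with 2 bases between them, was in neither window on either strand, and 2.98% of all promoters held it. A promoter was found for 7 of the 10 genes, and none of the 7 held the longer motif in these windows.

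After filtering, 11958 cells of the control library and 9979 of the ENZ library were kept, and 9812 and 8461 of them fell into the 7 classes described here. The libraries held 170830346 and 162030149 unique molecular identifiers (UMIs, counted RNA molecules) in all. Cancer cells (4289 control and 4538 ENZ) had the most RNA, with medians of 20818 and 21750 UMIs per cell. Macrophages (3213 and 2266), monocytes (689 and 707), dendritic cells (642 and 294) and NK cells (870 and 434) had medians between 3081 and 5174 UMIs. Gated CD8 T cells were few (62 and 126), as were gated regulatory T cells (47 and 96), and their values rest on little RNA. These gates need a counted Cd8a or Foxp3 UMI, and 494 and 661 T cells fell outside the CD8, CD4 and regulatory gates. Sub-clusters of T cells gave 108 and 259 CD8 T cells and 135 and 262 regulatory T cells. Gated T cells were checked with genes that the gates did not use, while the other classes were named from their markers. CD8 T cells had 248 CPM of Cd8b1 in the control tumor and 250.1 CPM in the ENZ tumor, regulatory T cells 406 and 506 CPM of Il2ra, and cancer cells 458 and 515 CPM of Krt8 with 11.9 and 6.22 CPM of Ptprc, the gene of CD45. Levels are given as CPM, in which the pooled UMIs of a class are scaled by its UMI total, with a 95% interval that covers counting error only. Of the kept barcodes, 39 occurred in both libraries. The libraries also stood apart in RNA makeup. The rRNA-like gene Gm42418 took 10726 CPM of cancer cells in the control tumor and 29083 CPM in the ENZ tumor, and immediate early and heat shock genes of handling took 6847 and 4425 CPM. In macrophages Gm42418 took 34883 and 99124 CPM and the handling genes 13160 and 11101 CPM. In monocytes Gm42418 took 34422 and 80874 CPM and the handling genes 19785 and 16071 CPM. Leaving mitochondrial, ribosomal protein and rRNA-like genes out of the UMI total was counted as moving none of the 61 ratios read below. Median-of-ratios scaling was also counted as moving none, yet some calls past 1.5-fold changed under it, as given below. This count therefore does not show that the calls held. The part of the handling genes, and of the rRNA-like and handling shifts in the shares of cells, was not tested.

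Among the 70 gene and class pairs, 61 had at least 20 UMIs over the libraries, and their ratio of ENZ over control was read. A ratio of 1.5 or more was found in 8 pairs and of 1/1.5 or less in 5 pairs. With median-of-ratios scaling in place of UMI totals, the gene and class pairs higher in the ENZ library were 6 and the gene and class pairs lower in the ENZ library were 7. The higher pairs were Cd274 in macrophages and in monocytes, Ctla4, Havcr2 and Tigit in NK cells, Cd86 and Pdcd1lg2 in CD8 T cells, and Lag3 in dendritic cells. The lower pairs were Cd80 and Cd86 in cancer cells and in NK cells, and Lag3 in macrophages. Many genes passed the same fold in each class, and the members are to be read against that background. In NK cells 3 of 9 checkpoint genes were higher and 2 were lower, where 8.29% of all genes were higher and 10.8% lower. In cancer cells none of 10 was higher and 2 were lower, against 3.73% and 9.48% of all genes. In macrophages 1 of 10 was higher and 1 lower, against 7.72% and 11.4%. In monocytes 1 of 6 was higher and none lower, against 12.7% and 8.09%. In CD8 T cells 2 of 10 were higher and none lower, against 17.6% and 13.1%. In dendritic cells 1 of 7 was higher and none lower, against 15.2% and 8.57%. None of the 9 read in regulatory T cells passed in either direction, against 20.2% higher and 11.6% lower. The median log2 ratio of the checkpoint genes was 0.348 in NK cells beside 0.014 for all genes, and −0.295 in cancer cells beside −0.01.

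**Figure D1:**
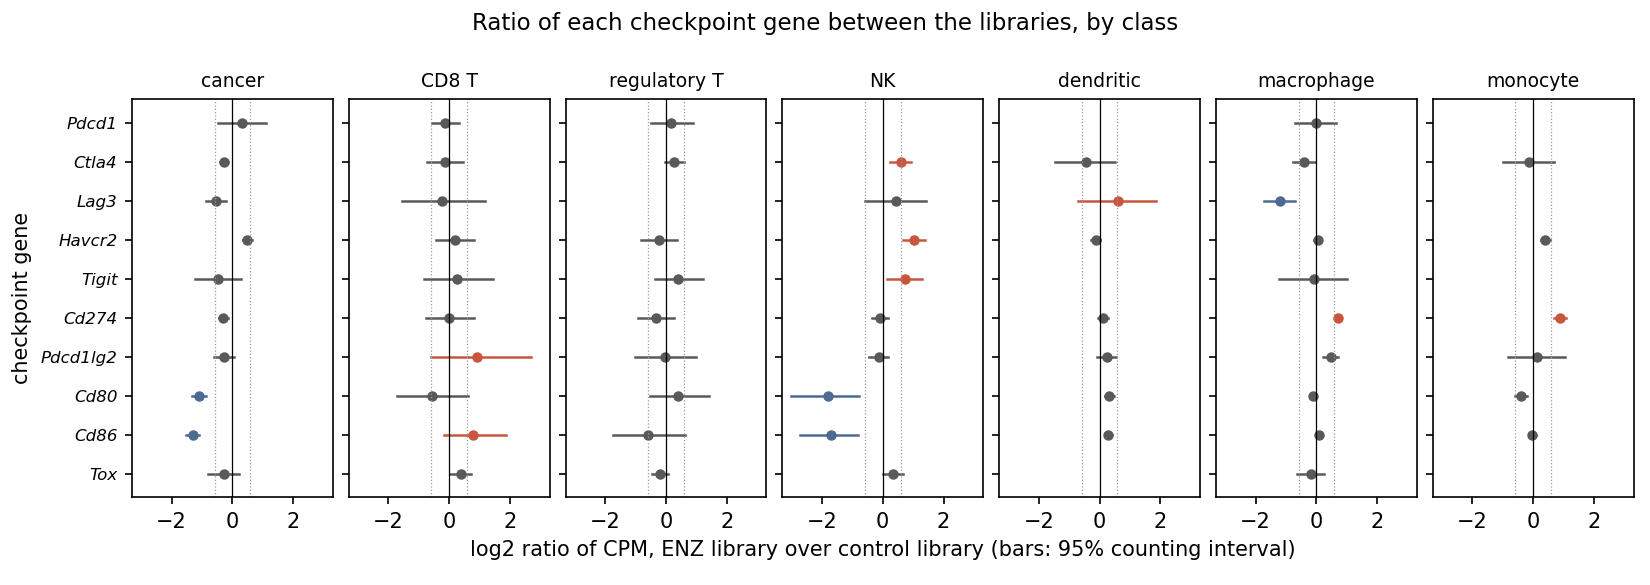
Log2 ratio of CPM between the ENZ and control libraries (x axis) for each checkpoint gene (rows) in the 7 classes (panels), with 95% counting intervals as bars and dotted lines at 1.5-fold. Pairs past 1.5-fold are colored, and pairs under 20 UMIs are left out. The intervals of Cd274 in macrophages and monocytes and of Cd80 and Cd86 in cancer and NK cells lie on 1 side of 0, while those of the pairs called in CD8 T and dendritic cells cross it.

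Pdcd1 was a gene of T cells in these tumors. In CD8 T cells its level was 179 CPM (95% interval 139 to 226) in the control tumor and 163 CPM (135 to 196) in the ENZ tumor. Regulatory T cells had 110 and 125 CPM, and CD4 T cells without a Foxp3 UMI had 96.1 and 130 CPM. That CD4 class can hold regulatory T cells whose Foxp3 was not counted, and its Il2ra was at 144 and 293 CPM. Outside T cells Pdcd1 did not exceed 4.53 CPM in the classes plotted. The ratio in CD8 T cells was 0.911 (0.671 to 1.24), so the libraries were not distinguishable within counting error. Of CD8 T cells thinned to 1000 UMIs, 11.3% (4.66% to 21.9%) had a Pdcd1 UMI in the control tumor and 19.0% (12.6% to 27.0%) in the ENZ tumor, and no order is read from shares that go against the CPM. Without thinning the shares were 33.9% and 40.5%. The share in cancer cells, which should lack the gene, was 0.0233% and 0.0661% after thinning.

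Ctla4 was highest in regulatory T cells, at 504 CPM (420 to 599) in the control tumor and 611 CPM (545 to 683) in the ENZ tumor. The ratio was 1.21 (0.984 to 1.5), an interval that includes equal levels. CD4 T cells without a Foxp3 UMI followed at 353 and 268 CPM, CD8 T cells at 107 and 97.0 CPM, and NK cells at 39.9 and 59.9 CPM. Regulatory and CD4 T cells of the control library had overlapping intervals, whereas in the ENZ library the intervals of the 4 classes did not overlap. NK cells were at the fold, with a ratio of 1.5 (1.18 to 1.91), and 10 of 16 alternatives kept the call, with a log2 ratio of Ctla4 in NK of 0.14 when each cell was weighted alike. In thinned cells the order was not the same, since 4.25% of control NK cells and 3.46% of ENZ NK cells had a Ctla4 UMI. The T cell receptor genes Cd3d, Cd3e and Cd3g together had 142 CPM in control NK cells and 81.4 CPM in ENZ NK cells, from 560 and 166 UMIs, and their part in the NK values was not tested.

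Ctla4 was also counted outside lymphocytes. Cancer cells had 11.1 CPM (10.5 to 11.8) in the control tumor and 9.20 CPM (8.65 to 9.78) in the ENZ tumor. Fibroblasts had 8.81 and 9.86 CPM, monocytes 8.52 and 7.71 CPM and neutrophils 5.73 and 5.02 CPM. The 1208 UMIs in control cancer cells were 54.9% of all Ctla4 UMIs of that library, and in the ENZ library 44.7%. This was below the share of cancer cells in the UMIs of all genes, which was 73.2% and 81.4%. RNA outside cells, read from barcodes with 1 to 100 UMIs, held 17 CPM of Ctla4 in the control tumor and 22.1 CPM in the ENZ tumor. Its share of the UMIs of cancer cells was estimated at 4.29% and 2.95%, from the marker gene of other classes that allowed least. At that share it would bring 0.728 and 0.652 CPM to them. The estimate has no counting interval and came to 0 in regulatory T cells of both libraries. The part of RNA outside cells in the measured level was not tested. Ctla4 was also set beside the Cd3 genes in each class. Those barcodes had 0.439 Ctla4 UMIs per UMI of Cd3d, Cd3e or Cd3g (0.323 to 0.592) in the control tumor and 0.449 (0.341 to 0.588) in the ENZ tumor. Cancer cells had 3.52 (3.12 to 3.98) and 6.29 (5.34 to 7.45), above the intervals of NK cells, macrophages and those barcodes. Regulatory T cells had 0.331 and 0.565, but the T cell classes were gated on a Cd3 UMI, which lowers this ratio, and are not compared. Control fibroblasts had 0.679 (0.358 to 1.26), below cancer cells. ENZ fibroblasts had 14 Ctla4 UMIs beside 1 Cd3 UMI, a ratio of 14 (2.13 to 592). That wide interval overlaps cancer cells and lies above NK cells, macrophages and the barcodes of few UMIs in that library. The annotated gene begins at base 60887000, while its RefSeq promoter window ends at base 60909024, so the gene model reaches upstream of that start. Which part of the gene the UMIs of cancer cells came from cannot be read from these tables.

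**Figure D2:**
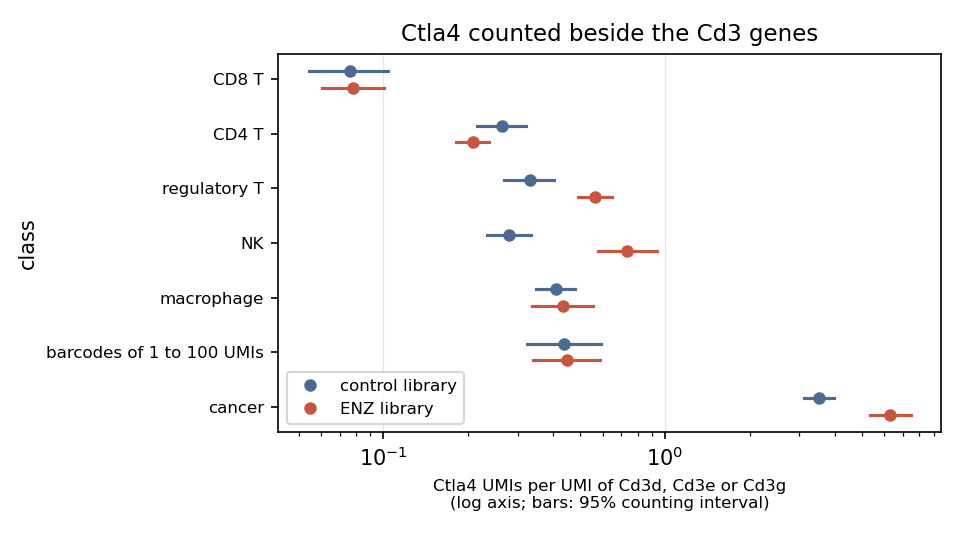
Ctla4 UMIs per UMI of the 3 Cd3 genes (x axis, log scale) by class (rows) in the control and ENZ libraries, with 95% counting intervals as bars. Cancer cells sit at 3.52 and 6.29, while NK cells, macrophages and barcodes of 1 to 100 UMIs sit between 0.280 and 0.735. The T cell classes were gated on a Cd3 UMI, which lowers their ratio.

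Lag3, a receptor for MHC class II, was sparse. CD8 T cells had 23.0 CPM (10.5 to 43.7) from 9 UMIs in the control tumor and 19.7 CPM (10.8 to 33.0) from 14 UMIs in the ENZ tumor. The levels did not differ within counting error. They came first in both libraries, but the intervals overlap those of other classes, among them regulatory T cells in the control tumor and CD4 T cells in the ENZ tumor. Macrophages had 8.49 CPM (7.26 to 9.88) in the control tumor and 3.68 CPM (2.65 to 4.97) in the ENZ tumor, a ratio of 0.433 (0.301 to 0.610). With each library clustered alone the log2 ratio of Lag3 in macrophage was −0.45, short of the fold. The C1qa and Mrc1 macrophage cluster had 13.4 and 6.88 CPM and the Ccl24 cluster 5.03 and 0.682 CPM, the latter from 49 and 4 UMIs. Both clusters were lower in the ENZ library, whereas the macrophage cluster of few UMIs had 10 and 9 UMIs and was not read. The higher ratio in dendritic cells, 1.51 (0.608 to 3.6), rested on 15 and 10 UMIs and includes equal levels.

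Havcr2, the gene of TIM-3, was led by myeloid cells. Conventional type 1 dendritic cells (cDC1) had 503 CPM (469 to 539) in the control tumor and 478 CPM (424 to 536) in the ENZ tumor, the highest of any class. Type 2 dendritic cells (cDC2) had 201 and 256 CPM, and mature dendritic cells 31.2 and 12.4 CPM from 16 and 5 UMIs. Within the dendritic cells cDC1 were thus the highest and mature cells the lowest in both libraries. Monocytes had 189 CPM (174 to 204) and 248 CPM (232 to 266), a ratio of 1.32 (1.18 to 1.46) that stays under the fold. CD8 T cells had 89.5 and 101 CPM and regulatory T cells 154 and 131 CPM. NK cells gave the highest ratio of the 61 pairs read, with 31.7 CPM (26.4 to 37.8) in the control tumor and 64.3 CPM (53.7 to 76.3) in the ENZ tumor, a ratio of 2.03 (1.57 to 2.61). In thinned NK cells the share with a Havcr2 UMI was 2.30% (1.41% to 3.53%) and 3.23% (1.77% to 5.35%), and these intervals overlap. When each NK cell was weighted alike, the log2 ratio for Havcr2 in NK was 0.26, below the fold. Cancer cells had 5.65 and 7.90 CPM of Havcr2, a ratio of 1.4 (1.26 to 1.55), and the cancer cluster led by Ank3 and Krt8 had 8.78 and 11.8 CPM.

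Tigit, a receptor for CD155 (Pvr), was highest in lymphocytes. Regulatory T cells had 78.8 CPM (48.1 to 122) in the control tumor and 105 CPM (78.5 to 137) in the ENZ tumor. CD4 T cells had 59.4 and 50.8 CPM, CD8 T cells 28.1 and 33.7 CPM and NK cells 15.2 and 25.0 CPM. The NK ratio of 1.64 (1.11 to 2.43) passed the fold. When each cell was weighted alike, the log2 ratio of Tigit in NK was 0.40, below the fold. Neutrophils had no UMI of Tigit in either library, and 3 counts, the limit used for a count of 0, would be 1.01 CPM in the control tumor and 2.51 CPM in the ENZ tumor. The upper ends of the 95% intervals were 1.24 and 3.08 CPM. Macrophages had 1.11 and 1.05 CPM.

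**Figure D3:**
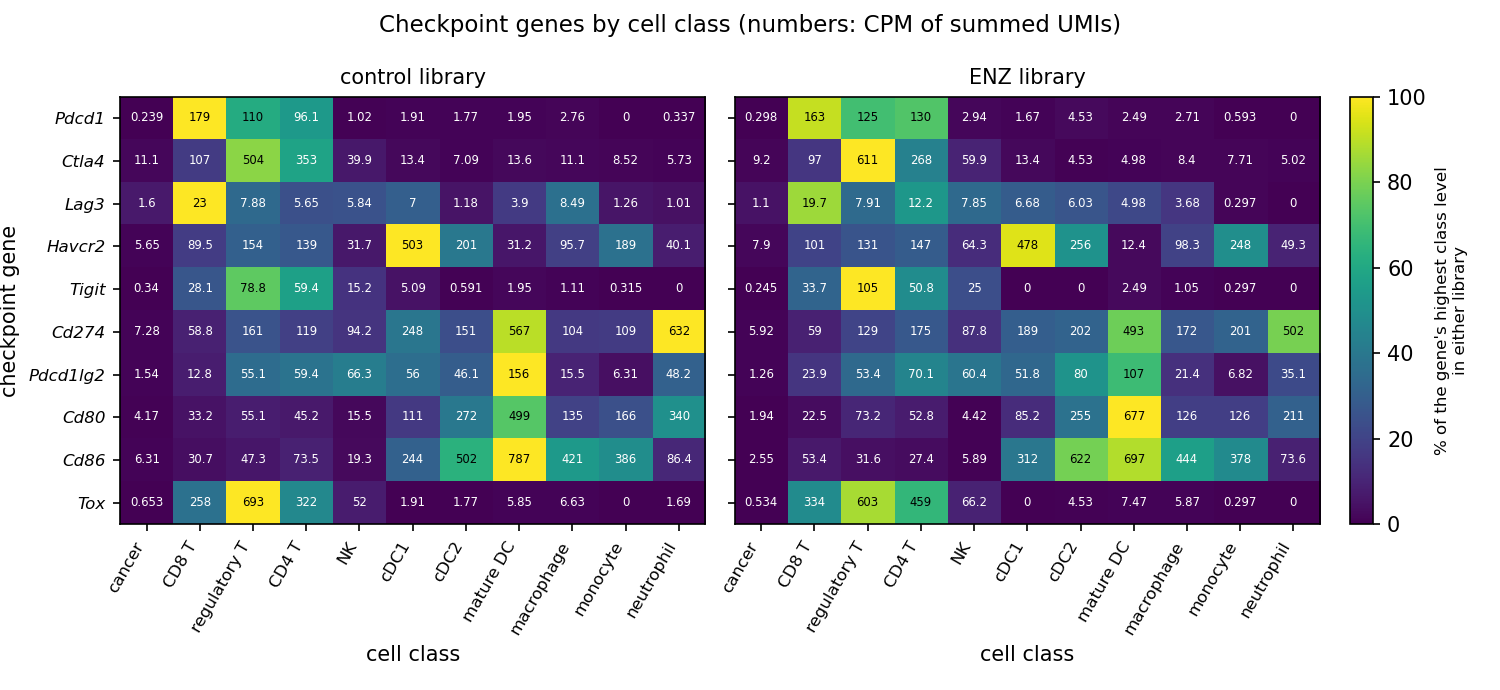
Level of each checkpoint gene (rows) in 11 classes and subtypes (columns) of the control library (left) and ENZ library (right). Numbers are CPM, and color gives the level as a percent of the highest class of that gene in either library. Pdcd1, Ctla4, Tigit and Tox are brightest in T cell columns, Havcr2 in cDC1 at 503 and 478 CPM, Cd80 and Cd86 in mature dendritic cells, and Cd274 in neutrophils at 632 and 502 CPM.

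The receptors were then counted together in single cells thinned to 1000 UMIs. Of the CD8 T cells, 22.6% (14 of 62, interval 12.9% to 35.0%) had a UMI of at least 1 of the 5 receptors in the control tumor and 35.7% (45 of 126, 27.4% to 44.7%) in the ENZ tumor. At least 2 receptors were seen in 4.84% (1.01% to 13.5%) and 8.73% (4.44% to 15.1%). Regulatory T cells had 42.6% (28.3% to 57.8%) and 55.2% (44.7% to 65.4%) for at least 1 receptor, and in each library this interval overlaps that of CD8 T cells. NK cells had 9.20% and 9.45%. In each class the intervals of the libraries overlap. Among CD8 T cells of the ENZ library, a receptor was seen in 34.4% (18.6% to 53.2%) of the 32 cells with a Tox UMI and in 36.2% (26.5% to 46.7%) of the 94 without. In control regulatory T cells the shares were 56.5% (34.5% to 76.8%) of 23 cells with Tox and 29.2% (12.6% to 51.1%) of 24 without, and in those of the ENZ library 57.1% (39.4% to 73.7%) and 54.1% (40.9% to 66.9%). In each case the intervals of cells with and without Tox overlap. In regulatory T cells taken from sub-clusters the order was turned, at 50.7% with and 54.7% without Tox in the control library and 48.7% and 51.7% in the ENZ library, also within the intervals. At 2000 UMIs, 75.0% (42.8% to 94.5%) of 12 control CD8 T cells with Tox and 35.4% (22.2% to 50.5%) of 48 without had a receptor, and in the ENZ library 63.0% (47.5% to 76.8%) and 42.1% (30.9% to 54.0%), so the intervals overlap in both. With CD8 T cells taken from sub-clusters the shares at that depth were 75.0% (53.3% to 90.2%) and 35.6% (24.7% to 47.7%) in the control library, which do not overlap, and 62.7% (50.7% to 73.6%) and 49.7% (41.6% to 57.8%) in the ENZ library, which do. At 1000 UMIs the sub-clusters had 42.9% (21.8% to 66.0%) and 21.8% (13.7% to 32.0%) in the control library and 32.3% (21.2% to 45.1%) and 35.6% (28.8% to 42.7%) in the ENZ library, with overlap in both. Without thinning, 90.9% (70.8% to 98.9%) of control CD8 T cells with Tox and 55.0% (38.5% to 70.7%) without had a receptor. In the ENZ library these shares were 84.8% (75.0% to 91.9%) and 59.6% (44.3% to 73.6%), with no overlap in either library. The CD8 sub-clusters overlapped in the control library only, and regulatory T cells in both. Cells with more UMIs can show Tox and a receptor more often, so no association is read from unthinned shares.

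**Figure D4:**
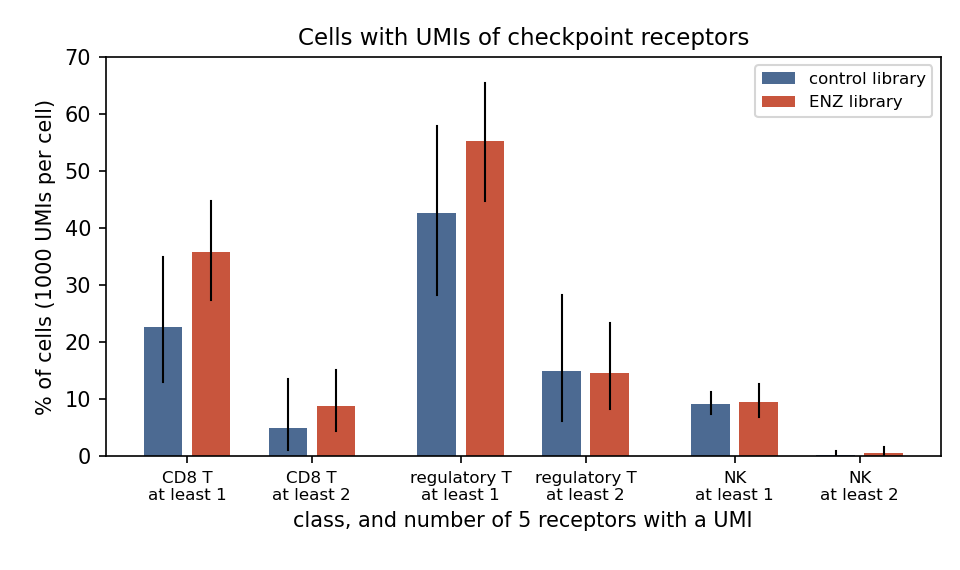
Percent of cells (y axis) with a UMI of at least 1 or at least 2 of Pdcd1, Ctla4, Lag3, Havcr2 and Tigit, by class and library (x axis), with every cell thinned to 1000 UMIs and 95% Clopper-Pearson intervals as lines. CD8 T cells stand at 22.6% and 35.7% for at least 1 receptor, regulatory T cells at 42.6% and 55.2%, and the intervals of the libraries overlap in each class.

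Cd274, the gene of PD-L1, was higher in the ENZ library in macrophages and monocytes. Macrophages had 104 CPM (99.3 to 108) in the control tumor and 172 CPM (164 to 180) in the ENZ tumor, a ratio of 1.66 (1.56 to 1.76) from 2064 and 1963 UMIs. The makeup of the class moved with it, since all 12 monocyte markers summed to 2994 and 4367 CPM in macrophages, led by Cd14 in the control tumor and by Chil3 in the ENZ tumor, and all 14 macrophage markers, led by Apoe, to 10978 and 7536 CPM. Their part in the Cd274 ratio was not tested. Monocytes had 109 CPM (97.6 to 121) and 201 CPM (186 to 217), a ratio of 1.85 (1.62 to 2.11). Among thinned monocytes 10.4% (8.27% to 13%) and 16.8% (14.1% to 19.8%) had a Cd274 UMI, and among macrophages 8.75% (7.79% to 9.78%) and 11.5% (10.2% to 12.9%). The shares without thinning were 29.5% and 43.3% in monocytes and 30.4% and 36.7% in macrophages. RNA outside cells was estimated at 3.27% and 3.82% of the UMIs of monocytes and 8.55% and 6.44% of those of macrophages. The estimate was read from the marker gene of other classes that allowed least and has no counting interval. At 1000 UMIs that share would give a Cd274 UMI to 0.122% and 0.141% of monocytes and 0.319% and 0.238% of macrophages. The part of RNA outside cells was not tested. By cluster, the Ccl24 macrophages had 98.4 and 184 CPM, the C1qa and Mrc1 macrophages 119 and 194 CPM, and the macrophages of few UMIs 81.9 and 75.3 CPM. The first pair of clusters were thus higher in the ENZ library, and the cluster of few UMIs was not. The Ccl24 cluster scored close for both names (4.01 for macrophage and 4.16 for monocyte), and its C1qa was at 846 and 278 CPM and its Chil3 at 135 and 1466 CPM. The part of this shift in its checkpoint levels was not tested. The macrophage call was kept by 11 of 16 alternatives and rests on how the cells were clustered. Among those that lost it, the log2 ratio of Cd274 in macrophages was 0.55 at a finer resolution and 0.53 with each library clustered alone. With the checkpoint genes used in clustering it was 0.46, also under the fold. Neutrophil marker genes moved with the monocyte result, the 9 summing to 366 CPM in control monocytes and 805 CPM in ENZ monocytes, led by S100a8 at 94.0 and 443 CPM, with 8 of them detected and Ly6g at 0 in both libraries. In macrophages all 9 were detected and summed to 849 and 366 CPM, led by S100a9. The 8 dendritic markers, all detected and led by Cd74, summed to 3558 and 1326 CPM in monocytes and to 11475 and 5948 CPM in macrophages. The part of these markers in the Cd274 differences was not tested.

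The highest Cd274 levels were elsewhere. Neutrophils had 632 CPM (604 to 661) in the control tumor and 502 CPM (462 to 544) in the ENZ tumor, and mature dendritic cells had 567 CPM (504 to 636) and 493 CPM (427 to 567). These did not differ from one another within their intervals in either library. cDC1 had 248 and 189 CPM and cDC2 151 and 202 CPM. cDC1 came next in the control library only, since in the ENZ library cDC2, monocytes and cDC1 had overlapping intervals. In neutrophils the ratio was 0.794 (0.723 to 0.871) and in cDC1 0.760 (0.611 to 0.939), opposite to the direction in monocytes, so the higher level in the ENZ library was not shared by all myeloid cells. Cancer cells had 7.28 CPM (6.78 to 7.80) and 5.92 CPM (5.48 to 6.38). RNA outside cells held 37.3 and 37.0 CPM. At its estimated share of 4.29% and 2.95% of the UMIs of cancer cells it would bring 1.60 and 1.09 CPM. That share has no counting interval, and the part of RNA outside cells was not tested. A cluster of 34 and 62 cancer cells led by interferon-induced genes (Rsad2, Ifit3 and Cxcl10) stood apart with 57.0 CPM (39.4 to 79.6) and 22.8 CPM (15 to 33.1). The clusters led by Ank3, Pcdh9 and Tm4sf1, which held most cancer cells, had between 4.85 and 6.84 CPM.

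Pdcd1lg2, the gene of PD-L2, peaked in mature dendritic cells at 156 CPM (124 to 194) in the control tumor and 107 CPM (77.5 to 144) in the ENZ tumor. NK cells were next among the 7 classes apart from dendritic cells, at 66.3 CPM (58.5 to 74.8) and 60.4 CPM (50.2 to 72.0), and 6.67% and 4.38% of thinned NK cells had a UMI of it. Regulatory T cells, at 55.1 CPM (30.1 to 92.5) and 53.4 CPM (35.2 to 77.7), overlapped NK cells in both libraries, so that order is not resolved. Monocytes, which had over 100 CPM of Cd274, had 6.31 and 6.82 CPM of Pdcd1lg2 from 20 and 23 UMIs. The neighboring ligand genes thus had different patterns over the same cells. Macrophages had 15.5 and 21.4 CPM, a ratio of 1.39 (1.17 to 1.64). This was uneven, with 16.7 and 34.2 CPM in the C1qa and Mrc1 cluster, a ratio of 2.04 (1.59 to 2.62), and 14.4 and 15.9 CPM in the Ccl24 cluster. The CD8 T cell ratio of 1.87 (0.662 to 6.48) for Pdcd1lg2 came from 5 and 17 UMIs and includes equal levels.

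Cd80 and Cd86, which bind CD28 and CTLA-4, had their highest levels in mature dendritic cells, though for Cd86 their interval overlapped that of cDC2 in the ENZ library. Neutrophils had 340 and 211 CPM of Cd80, above monocytes and macrophages in both libraries. Mature dendritic cells had 499 CPM (440 to 564) of Cd80 in the control tumor and 677 CPM (599 to 763) in the ENZ tumor, a ratio of 1.36 (1.14 to 1.62). Monocytes had 166 and 126 CPM, a ratio of 0.760 (0.667 to 0.865), and macrophages 135 and 126 CPM. Cd86 was at 787 and 697 CPM in mature dendritic cells, 502 and 622 CPM in cDC2, and 386 and 378 CPM in monocytes. Macrophages had 421 CPM (412 to 431) and 444 CPM (432 to 457) of Cd86, nearly equal in sum. Inside that sum the clusters went opposite ways. The C1qa and Mrc1 macrophages had 388 and 614 CPM, a ratio of 1.58 (1.5 to 1.67), the Ccl24 macrophages 433 and 369 CPM, a ratio of 0.853 (0.809 to 0.898), and the macrophages of few UMIs 495 and 323 CPM, a ratio of 0.652 (0.582 to 0.729). The C1qa and Mrc1 cluster was thus higher in Cd274, Pdcd1lg2 and Cd86 in the ENZ library, and its Cd80 was at 106 and 138 CPM. Its makeup moved too, with S100a8 at 370 and 110 CPM and Chil3 at 66.8 and 213 CPM. The part of this shift in its checkpoint levels was not tested either. In CD8 T cells Cd86 had 12 and 38 UMIs, or 30.7 and 53.4 CPM, at a ratio of 1.74 (0.891 to 3.66) that includes equal levels. The log2 ratio of Cd86 in CD8 T turned from 0.80 to −0.86 with each library clustered alone. CD4 T cells had 73.5 and 27.4 CPM at a ratio of 0.373 (0.210 to 0.666).

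**Figure D5:**
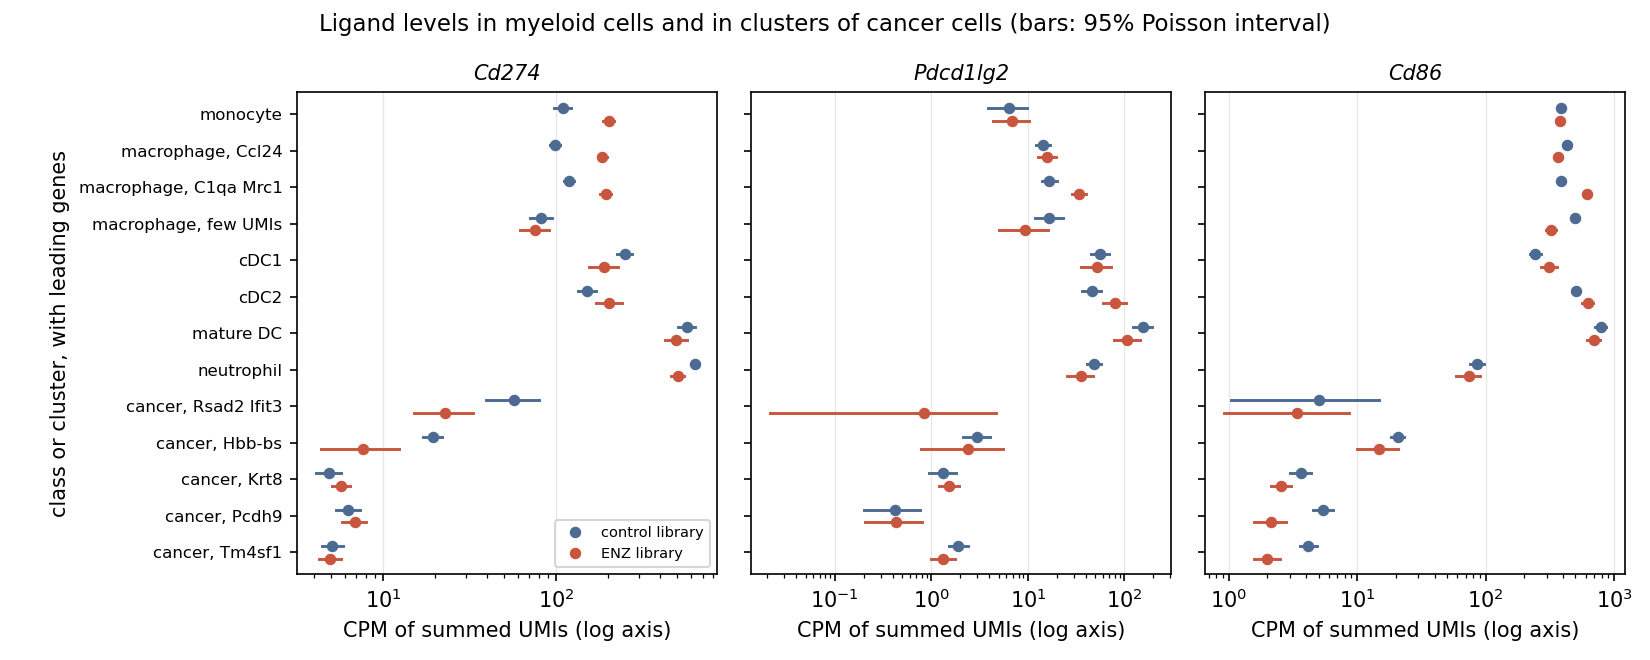
Levels of Cd274, Pdcd1lg2 and Cd86 (panels, x axis in CPM on a log scale) in myeloid classes and in clusters of cancer cells (rows), with 95% Poisson intervals as bars and points left out where no UMI was counted. Cd274 is higher in the ENZ library in monocytes and in the Ccl24 and the C1qa and Mrc1 macrophages, and Cd86 is higher in the latter at 614 against 388 CPM. The interferon-led cancer cluster reaches 57.0 CPM of Cd274 in the control library, and it and the other cancer clusters lie below the myeloid rows for that gene.

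In cancer cells Cd80 was at 4.17 CPM (3.79 to 4.57) in the control tumor and 1.94 CPM (1.70 to 2.22) in the ENZ tumor, and Cd86 at 6.31 CPM (5.85 to 6.80) and 2.55 CPM (2.26 to 2.86). The ratios were 0.466 (0.395 to 0.549) and 0.404 (0.351 to 0.464). The same direction was seen in NK cells, with 15.5 and 4.42 CPM of Cd80 and 19.3 and 5.89 CPM of Cd86, at ratios of 0.285 (0.124 to 0.578) and 0.305 (0.151 to 0.565). RNA outside cells held 80.1 CPM of Cd86 in the control tumor and 54.3 CPM in the ENZ tumor. At its estimated share it would bring 3.44 and 1.61 CPM of Cd86 to cancer cells and 3.74 and 1.62 CPM to NK cells. That share has no counting interval, and the part of RNA outside cells was not tested. Dendritic markers moved with the Cd80 and Cd86 levels. All 8 were detected in cancer cells and summed to 245 and 85.5 CPM, led by Cd74 at 122 and 28.6 CPM, and in NK cells they summed to 1028 and 381 CPM, led by Cd74 at 456 and 136 CPM, with Flt3 at 0 in ENZ NK cells. Ptprc in cancer cells was likewise lower in the ENZ library, at 11.9 and 6.22 CPM. Macrophage markers in cancer cells, all 14 of which were detected, summed to 218 and 121 CPM and were led by Pf4 at 74.7 and 65.0 CPM. In NK cells the 14 macrophage markers summed to 276 and 133 CPM, led by Apoe at 126 and 42.7 CPM. Their part in the lower Cd80 and Cd86 was not tested. Without the cancer cluster led by hemoglobin genes, which had 20.7 and 14.8 CPM of Cd86, the log2 ratios for Cd80 and Cd86 in cancer were still past the fold. In the Ank3 cluster alone, at ratios of 0.671 and 0.708, neither gene passed it.

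Tox followed the T cells. Regulatory T cells had 693 CPM (594 to 803) in the control tumor and 603 CPM (537 to 675) in the ENZ tumor. CD4 T cells had 322 and 459 CPM, CD8 T cells 258 CPM (210 to 314) and 334 CPM (293 to 380), and NK cells 52.0 and 66.2 CPM. The CD8 T cell ratio was 1.30 (1.02 to 1.65), under the fold, and with CD8 T cells taken from sub-clusters of T cells it was 1.01 (0.848 to 1.2). The T cell cluster with the highest Cd8a differed more. It had 167 and 314 CPM of Tox, 93.2 and 141 CPM of Pdcd1, 80.6 and 125 CPM of Ctla4 and 48.5 and 105 CPM of Havcr2, at ratios of 1.88, 1.51, 1.55 and 2.17. Its Cd8a was at 82.2 and 115 CPM and its Cd4 at 35.2 and 112 CPM, so the makeup of that cluster differed between the libraries too. The part of that makeup in the ratios was not tested.

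The genes whose levels over 14 classes in each library were most like those of a member were looked up as a description, with no test, and the 28 points share their libraries and depth. Ctla4 was nearest to Tigit (Pearson r of 0.977 on a log2 scale), followed by Icos and Cd28, and Tigit to Ctla4, Icos and Cd2. Pdcd1 was nearest to the unnamed gene Gm8369 (0.974), Bcl11b (0.972) and Trac (0.971), and Tox to Cd3d (0.984), Cd28 (0.980) and Cd2 (0.979). Cd86 was nearest to Grk3 (0.951), Sowahc (0.946) and Ly86 (0.935), and Cd80 to Rel (0.918), Nfil3 (0.917) and Map3k8 (0.896). Cd274 was nearest to Gmip (0.910), Gm36043 (0.90) and Mthfs (0.899), and Pdcd1lg2 to Tspan13 (0.843), Traf1 (0.822) and Dock10 (0.821). Havcr2 was nearest to Ucp2 (0.885), Parvg (0.876) and Tnfaip8l2 (0.860). Lag3 had the loosest match, with Dennd2d (0.762), Kdm4d (0.757) and Ubac2 (0.747).

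Other genes of the checkpoint pathways were counted as lists. Of 15 genes of exhausted and memory T cells, which are transcription factors apart from the surface receptor Slamf6, 14 could be read in CD8 T cells, where 4 were higher (Nr4a2, Nr4a3, Prdm1 and Id2) and 6 lower (Tcf7, Slamf6, Nr4a1, Batf, Id3 and Ikzf2) in the ENZ library, against 17.6% and 13.1% of all genes. Their median log2 ratio was 0.02 beside 0.044 for all genes. Id2 was at 110 and 242 CPM and Ikzf2, a factor also of regulatory T cells, at 882 and 572 CPM. Tcf7, which marks memory-like T cells and was named after its values were seen, was at 120 and 70.3 CPM, a ratio of 0.585 (0.385 to 0.890). Of 8 costimulatory receptors, 7 could be read in regulatory T cells, and 2 were higher (Cd27 and Cd226) and none lower, against 20.2% and 11.6% of all genes. Tnfrsf9 was at 957 and 797 CPM and Icos at 339 and 405 CPM there. In NK cells 1 of 7 costimulatory receptors was higher, Cd226 at 21.8 and 37.8 CPM, and 2 of 8 other inhibitory receptors were lower, Cd160 and Lair1, where 8.29% of all genes were higher and 10.8% lower. Of the other inhibitory receptors in cancer cells, 6 of 10 were lower and none higher, against 9.48% and 3.73% of all genes. Together the 10 were at 8.57 and 6.57 CPM there. Ptprc and the summed dendritic and macrophage markers of cancer cells were also lower in the ENZ library, as given above. Their part in this count was not tested. In macrophages 4 of 10 other inhibitory receptors were lower and 1 higher, against 11.4% and 7.72%. In cDC1 3 of 4 were higher and none lower, against 14.3% and 12.1%. In CD8 T cells 1 of 5 other inhibitory receptors was higher (Vsir, 20.4 and 32.3 CPM) and 1 lower (Cd96, 63.9 and 40.8 CPM), and the intervals of both ratios include 1. Of 5 adaptors and phosphatases that act behind the receptors, 2 were higher in CD8 T cells (Ptpn11 and Inpp5d) and 1 lower (Ptpn6). The shares of all genes in CD8 T cells, 17.6% higher and 13.1% lower, stand beside both of these counts.

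Among 16 further ligands of these receptors, 5 of the 11 read in dendritic cells were higher in the ENZ library (Tnfsf9, Cd70, Cd40, Nectin2 and Cd200) and 1 lower (Lgals3, at 1355 and 813 CPM), against 15.2% and 8.57% of all genes. The mix of dendritic subtypes differed between the libraries, with mature cells at 121 of 642 and 86 of 294. Within subtypes the counts were smaller, with none of 8 higher in cDC1, none of 7 in cDC2 and 1 of 9 (Tnfsf9) in mature cells, and 1 lower in each. Of all genes, 14.3% were higher and 12.1% lower in cDC1, 14.1% and 10.7% in cDC2, and 23.1% and 11.6% in mature cells. Cd200 in mature cells was at 477 and 505 CPM. Of the 15 read in cancer cells, 1 was higher (Tnfrsf14) and 2 were lower (Fgl1 and Cd200), against 3.73% and 9.48% of all genes, and Pvr, the TIGIT ligand, was at 54.2 and 64.3 CPM. Of 12 genes of the interferon gamma response, 1 was higher and none lower in macrophages, and the same count held for the 11 read in monocytes, where 7.72% and 12.7% of all genes were higher. The gene was Cxcl9 each time, a chemokine induced by interferon gamma, at 18.9 and 37.8 CPM in macrophages and 5.36 and 8.60 CPM in monocytes. Cxcl10 was at 228 and 183 CPM in macrophages. Elsewhere the list went both ways. In cancer cells 2 of 12 were higher and 2 lower, in NK cells 1 of 11 higher and 2 lower, in cDC1 none of 10 higher and 3 lower, in cDC2 3 of 10 higher and 2 lower, and in mature dendritic cells 5 of 11 higher and 1 lower, to be read against the shares of all genes given above for each.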

How the data were processed

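Single-cell suspensions of 1 control and 1 ENZ tumor were sequenced as 10x Genomics 3' libraries. The deposited files hold unnormalized UMI counts of every gene in every barcode, which the authors made by alignment to mm10. The submitters' processing notes name Cell Ranger 2.1.1 while the deposited matrix headers carry 7.2.0, and whether intronic reads were counted is not given in the sources used here. Barcodes with at least 1000 UMIs and at most 20% mitochondrial UMIs were kept (12253 control, 10271 ENZ). Doublets were called with scrublet, and the lower automatic threshold (0.2496) was applied to both libraries (295 and 292 removed). Leiden clustering (scanpy 1.11.5, resolution 1, 2000 variable genes without the checkpoint genes, 30 principal components) gave clusters that were named from marker lists, so each class is one of cells like the named type. A macrophage and a monocyte score within 0.5 were decided by the larger share of markers, a rule set after the clusters were seen. CD8 T cells were cells of T clusters with a Cd3 and a Cd8a UMI and no Foxp3 or Cd4 UMI, and regulatory T cells had a Cd3 and a Foxp3 UMI and no Cd8a UMI. CD4 T cells had a Cd3 and a Cd4 UMI and no Foxp3 or Cd8a UMI. CPM had exact Poisson intervals, ratios exact conditional binomial intervals and shares Clopper-Pearson intervals (95%), which cover counting error only. A pair was read with at least 20 UMIs and called past 1.5-fold. Nearest genes were ranked by Pearson correlation of log2(CPM + 10) among genes with at least 20 CPM in a class. Scripts were tested on simulated data. All 10 checkpoint genes are named, and other genes by their abundance within a list, up to 4 per list, and those outside that rule were named after their values were seen. The members and the lists were chosen with earlier results of these data known. Hhla2 was not analysed here, and 1 gene of the interferon gamma list is not reported here.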

Additional observations from a re-analysis of the deposited data

How the results depend on the processing

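The 61 log2 ratios were recomputed under 16 alternatives (59 of them at resolution 2 and 60 with each library clustered alone), and 18 were tried in all, of which 4 were chosen after seeing the data. Gene and class pairs higher in the ENZ library (8 as reported) came to 13 with doublets kept and to 1 at a fold of 2. Gene and class pairs lower in the ENZ library (5 as reported) came to 9 by the mean of the CPM of each cell. The log2 ratio of Cd86 in CD8 T was 0.80 and turned to −0.86 with each library clustered alone. The percent of CD8 T cells with UMIs of at least 2 receptors, ENZ, was 8.73 and came to 16.4 when thinned to 2000 UMIs. The cause was not tested. All 16 alternatives kept the calls of Cd274 in monocytes, of Cd80 and Cd86 in cancer and NK cells and of Pdcd1lg2 in CD8 T cells, while 15 kept Havcr2 and Tigit in NK cells and Lag3 in macrophages, 13 Cd86 in CD8 T cells, 11 Cd274 in macrophages, 11 Lag3 in dendritic cells and 10 Ctla4 in NK cells. No paired analysis was possible because there is only 1 sample of each treatment, so that leaving out a replicate could not be tried either. Few CD8 and regulatory T cells limit what their values can show.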

Other observations

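Neutrophils, which were not among the 7 classes, had more Cd80 than monocytes in both libraries, at 340 CPM (319 to 362) in the control library and 211 CPM (185 to 238) in the ENZ library. The ratio of Cd80 was 0.620 (0.538 to 0.712). Their Cd86 was at 86.4 and 73.6 CPM and their Pdcd1lg2 at 48.2 and 35.1 CPM. T cells outside the CD8, CD4 and regulatory gates had 28.1 and 47.6 CPM of Tigit, a ratio of 1.70 (1.2 to 2.43), and 3 and 21 UMIs of Lag3.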
